A study of Mus musculus with 22 samples.

Results

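RNA levels of mouse embryonic stem (ES) cells that carry a CRISPR-Cas9 deletion of the Dux gene cluster were compared with those of wild-type cells after both had been given GSK-3484862 for 3 days. The comparison uses 4 of the 22 libraries of the series, chosen by their titles: 2 titled WT-GSK (WT below) and 2 titled Dux-KO22-GSK (KO22 below). GSK-3484862 is a small molecule that causes loss of DNMT1, the maintenance DNA methyltransferase, and was used in the study to imitate the loss of DNA methylation in the early embryo. The treatment protocol gives its dose as 1 uM and the design text as 2 uM, so the dose is uncertain. Cells were grown in serum and LIF. For reference, the text also uses 2 WT and 2 KO22 libraries given the solvent DMSO for the same 3 days, and 2 libraries of N22, read as the line the study calls Dux (n=1), given GSK-3484862. KO22 and N22 are read from their titles as 1 clone each, so that the deletion and the history of the clone cannot be told apart. The titles name no separate cultures, so the p-values set differences against a spread that may be only technical.

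Dux is a double homeobox transcription factor encoded in a repeat array on mouse chromosome 10. It is transcribed at the start of the 2-cell stage and binds and activates genes of the first wave of embryonic transcription, among them the Zscan4 cluster, Usp17-like deubiquitinases, Zfp352 and Tcstv genes. In ES cultures a small minority of cells passes through a state in which these genes are transcribed, and loss of DNA methylation is known to make Dux and many methylated germline genes more accessible to transcription. The question the comparison addresses is which transcripts still depend on the line once both lines have been given GSK-3484862.

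The 4 libraries held 18185943 and 18422898 counts for WT and 18472330 and 19063967 for KO22. The 8 ES cell markers checked (Pou5f1, Sox2, Nanog, Klf4, Esrrb, Zfp42, Tfcp2l1 and Dppa5a) summed to 4170 to 4220 CPM (counts scaled to the size of the library) in each of the 4. Of markers of other cell types, the fibroblast list summed to 1180 to 1200 CPM in WT against 1130 to 1150 in KO22, with S100a4 at 0 in all 4. The primitive endoderm list summed to 2150 to 2190 CPM in WT against 2140 to 2160 in KO22, with none of its 26 genes at 0. The trophoblast list summed to 1050 to 1080 CPM in WT against 1500 to 1550 in KO22. Prl2c2, Prl3d1, Rhox4b and Tpbpa of that list were at 0 in all 4 libraries, and Peg10, an imprinted gene that ES cells also transcribe, accounted for 803 and 817 CPM of it in WT and 1300 and 1350 in KO22. The part of other cell types in the results was not tested. A separate untreated library titled Dux-KO-22 did not look like the KO22 libraries: it held 5 Duxf3 counts and had counts for 31 of the 50 listed 2-cell genes, whereas KO22 with DMSO had no Duxf3 count and counts for 8 and 6 of them. That untreated library enters no test below and is described only with the other untreated clones, for chromosome 6.

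With GSK-3484862, 3728 of 16641 genes tested (22.4%) passed a Benjamini-Hochberg adjusted p of 0.05 in edgeR's quasi-likelihood test. Of these, 2044 (12.3%) were higher and 1684 (10.1%) lower in KO22, and 5432 had an unadjusted p below 0.05. Most differences were small: the median size over all genes was 0.177 on the log2 scale. Large differences were mostly losses. By at least 2-fold, 398 genes (2.39%) differed, 80 (0.481%) higher and 318 (1.91%) lower, and by at least 4-fold 16 were higher and 148 lower. At a log2 difference of 5 or more, 0 genes were higher and 81 were lower. Of the 148, 5 had a KO22 mean of at least 10 counts. The fitted size of most of these losses therefore rests on few or no KO22 counts. In DMSO the same lines differed at 8643 genes (51.9%), with a median size of 0.354. Fewer genes were thus called, and with smaller differences, when both lines had received GSK-3484862. The 2 WT libraries with DMSO had the lowest mitochondrial shares of counts in the series, 1.78% and 1.66%, against 2.28% and 2.36% in KO22 with DMSO. Whether this bears on the DMSO calls was not tested. DESeq2 called 2205 genes with GSK-3484862 in place of 3728, 1239 higher and 966 lower.

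**Figure D1:**
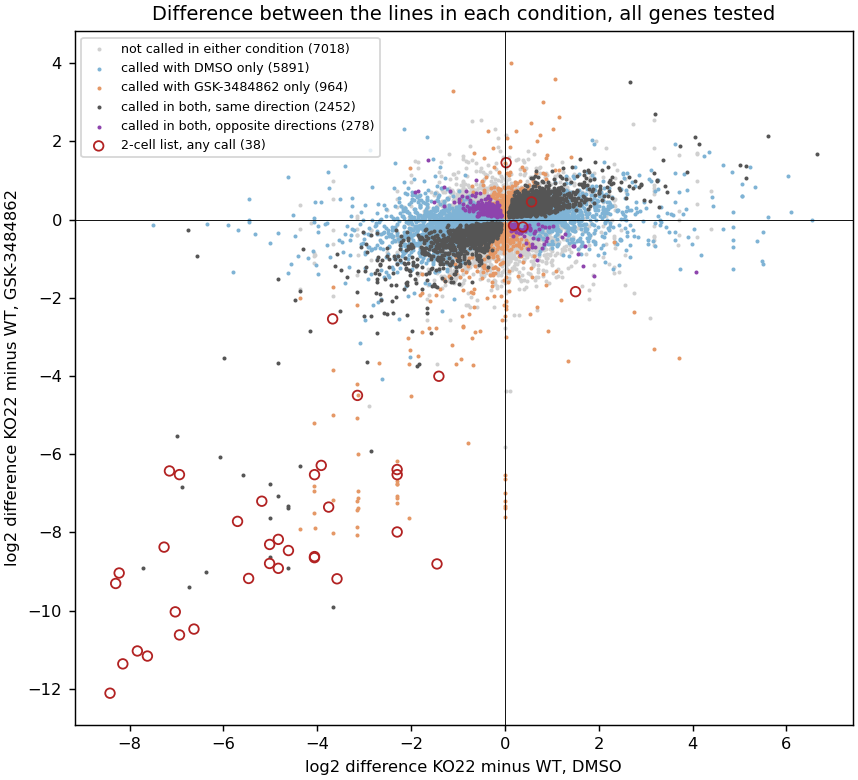
The log2 difference KO22 minus WT with DMSO (horizontal axis) is plotted against that with GSK-3484862 (vertical axis) for the 16641 genes tested, 1 point per gene, coloured by the conditions in which the gene was called. Open red circles are the 38 tested genes of the 2-cell list, which the coloured classes leave out, and 34 of them lie among the lower calls with GSK-3484862; values below about -6 belong to genes with few or no KO22 counts, whose fitted difference depends on the prior count.

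The gene models at the Dux locus, the target of the deletion, had no count in KO22. Which of them lie inside the deletion was not tested. Duxf3, the Ensembl gene model that carries Dux (chromosome 10, 58229979 to 58232675, GRCm38), had 19 and 18 counts in WT against 0 and 0 in KO22. Against a floor of 3 counts over the pair of KO22 libraries, WT was at least 12.6-fold higher (adjusted p 2.57e-05). The N22 clone had 13 and 11 counts, and DMSO gave 1 and 1 in WT and 0 and 0 in KO22. The next model in the array, Gm4981 (58234848 to 58236701), was too low to test: WT gave 5 and 4 counts, N22 7 and 1, and KO22 0 and 0. AW822073, a model on the other side of Duxf3 (58222972 to 58224930), gave 24 and 36 counts for WT, 16 and 9 for N22 and 0 and 0 for KO22, so that WT was at least 20.5-fold higher (adjusted p 4.90e-07). Genes tested beyond the array on either side were transcribed in both lines. Ranbp2, a nucleoporin gene on the Gm4981 side, had 4919 and 4971 counts in WT against 4829 and 4860 in KO22 (log2 difference -0.03, standard error (SE) 0.04, adjusted p 0.606). Gcc2, a Golgi protein gene and the nearest neighbour on that same side, was slightly higher in KO22 (446 and 482 against 497 and 649 counts, log2 0.30, SE 0.09, adjusted p 0.00878). On the AW822073 side the nearest genes were too low to test, and Serinc1, the next one tested, had 1506 and 1398 counts in WT against 1541 and 1623 in KO22 (log2 0.12, SE 0.06, adjusted p 0.123). Multi-mapping reads were not counted, so fragments from identical Dux repeats are partly lost and the level of the array is understated in WT and N22 alike.

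Genes of the 2-cell stage had the lowest median of the gene lists examined. Of 50 listed genes in the files, 38 were tested, and 34 were lower in KO22, 0 were higher and 4 did not pass, beside 10.1% lower and 12.3% higher over all genes. The list was chosen with earlier results of these data known, so its direction is not independent evidence. The summed level of the list was 278 and 268 CPM in WT and 41.3 and 41.9 CPM in KO22, with N22 between them at 176 and 169. Of the tested members, 23 had no count in either KO22 library, and no lower member had more than 11 counts over both. These 23 passed the count filter through other groups, so lower was the only call open to them. The share of lower members is therefore partly set by the filter. The median difference was -8.24 on the log2 scale as fitted and -5.18 when members with no KO22 count were set at their bound. In bulk RNA, fewer cells in the 2-cell-like state and less RNA per such cell cannot be told apart. The other 12 listed genes were too low to test; none had a count in KO22, and their highest sum in WT was 12 counts.

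Binding of DUX was not measured. The promoter stretches below are shown only because they carry a homeodomain-like match. RefSeq promoter windows (GRCm38.p6, 250 bases before to 50 after the start) were found for 70 of the 148 genes that were at least 4-fold lower. The half-sites TGATT and ATCA separated by any 2 bases, a loose form of a double homeodomain site, occurred on either strand in 5 of these 70 (7.14%), in 17 of 11597 tested genes with a promoter (0.147%), in 68 of 32851 promoters in all (0.207%) and in 0 of 55 genes at least 2-fold higher. Capitals mark the match, and each line reads 5′ to 3′ on the gene's own strand, ending before the start. In the 4 Zscan4 lines the half-sites lie on the opposite strand, so the capitals are their reverse complement. In the Abcb5 line they read as printed.
Zscan4b (chr7:10905091-10905181, minus strand): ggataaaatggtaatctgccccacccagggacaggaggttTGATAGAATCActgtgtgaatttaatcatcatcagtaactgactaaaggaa
Zscan4c (chr7:11005591-11005681, plus strand): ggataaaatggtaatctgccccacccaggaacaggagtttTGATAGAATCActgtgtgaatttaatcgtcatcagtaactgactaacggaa
Zscan4d (chr7:11166223-11166313, minus strand): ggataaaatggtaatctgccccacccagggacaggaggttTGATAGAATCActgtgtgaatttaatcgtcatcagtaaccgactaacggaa
Zscan4f (chr7:11397784-11397874, plus strand): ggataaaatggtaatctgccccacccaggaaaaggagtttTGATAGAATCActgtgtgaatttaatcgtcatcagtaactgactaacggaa
Abcb5 (chr12:118966447-118966537, minus strand): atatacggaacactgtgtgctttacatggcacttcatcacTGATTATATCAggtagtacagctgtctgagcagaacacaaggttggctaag
The 4 Zscan4 matches are near-identical copies in 1 gene cluster, so they are not 4 separate occurrences. The same half-sites with the second spacer base fixed as A, or with the spacer fixed as CA, occurred in 0 of the 70 promoters. In all 32851 promoters these 2 forms occurred in 11 and 3. Other searches on both strands were for TGATT and ATTA separated by any 2 bases, found in 2 of 70 (Gm4027 and BB287469) and 115 of all (0.35%), for TAATT and ATTA separated likewise, found in 0 of 70 and 87 of all (0.265%), and for CACGTG, an E-box, found in 1 of 70 (Car6) and 2349 of all (7.15%). A match is a string of letters and not a measured binding site.

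The Zscan4 genes encode zinc finger proteins that mark the 2-cell-like state and act in telomere maintenance. Zscan4c had 284 and 295 counts in WT against 0 and 0 in KO22, so that WT was at least 198-fold higher (adjusted p 7.15e-26), and N22 had 126 and 90. Zscan4d had 392 and 399 counts in WT against 0 and 1 in KO22, a ratio of 811 with an exact 95% interval of 145 to 32100 that covers counting error only. Zscan4f had 128 and 136 counts against 0 and 0, at least 90.2-fold (adjusted p 6.81e-19). Zscan4b, with 92 and 54 counts against 0 and 0, was at least 49.9-fold higher in WT. In all 4 genes the N22 libraries lay between the other lines and above every KO22 value.

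The Usp17-like genes encode deubiquitinases of the 2-cell stage. Usp17le had 313 and 344 counts in WT, 168 and 184 in N22 and 1 and 0 in KO22, a ratio of WT to KO22 of 674 (exact 95% interval 120 to 26600). Usp17la had 132 and 166 counts in WT against 1 and 2 in KO22, a ratio of 102 (34.5 to 497). Among unnamed 2-cell models, Gm21761 had 546 and 570 counts in WT, 291 and 265 in N22 and 0 and 0 in KO22 (WT at least 381-fold higher, adjusted p 3.84e-34). Gm5662 (358 and 308 counts in WT) and Gm2016 (254 and 274) were likewise at 0 and 0 in KO22. Both families and these models are multi-copy, and the counts of single copies are uncertain.

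Single-copy 2-cell genes were fewer. Of 8 tested, 6 were lower (75%, beside 10.1% of all genes) and 0 higher (beside 12.3%). As above, members with no KO22 count could only be called lower. Zfp352, a zinc finger gene of the 2-cell stage, had 46 and 43 counts in WT, 16 and 24 in N22 and 0 and 0 in KO22, at least 30.4-fold (adjusted p 1.72e-09). Tmem92, which encodes a membrane protein, had 69 and 53 counts in WT against 0 and 0 in KO22, at least 41.7-fold (adjusted p 9.66e-06). Tcstv3, which belongs to a small repeated family, had 34 and 46 counts against 0 and 0, at least 27.3-fold (adjusted p 1.25e-08). None of these genes overlapped between the lines, as was so for 58.7% of all genes tested.

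The other 4 tested members did not pass the test and made up most of what KO22 still held. Ddit4l, a relative of the mTOR regulator DDIT4, had 438 and 392 counts in WT against 357 and 393 in KO22 (log2 -0.15, SE 0.11, 95% interval -0.37 to 0.07, adjusted p 0.370). Zfp750, a zinc finger gene known from epidermis, had 328 and 347 counts in WT against 289 and 305 in KO22 (log2 -0.19, SE 0.12, adjusted p 0.282). The tripartite motif gene Trim43b had 49 and 53 counts in WT against 77 and 63 in KO22, and its relative Trim43c had 8 and 6 against 18 and 21 (log2 1.46, SE 0.57, adjusted p 0.0567). Fitted with only the libraries of the groups compared, Trim43c was called higher (adjusted p 0.0374). These 4 genes supplied 97.2% and 97.9% of the counts of the list in KO22, against 16.3% and 16.1% in WT. Without them the list summed to 233 and 225 CPM in WT, 120 and 109 in N22, and 1.14 and 0.892 in KO22. Ddit4l and Zfp750 were higher in N22 than in KO22 (470 and 558, and 361 and 442 counts; adjusted p 8.95e-05 and 4.78e-04), so these 2 were not at the same level in the 3 lines.

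**Figure D2:**
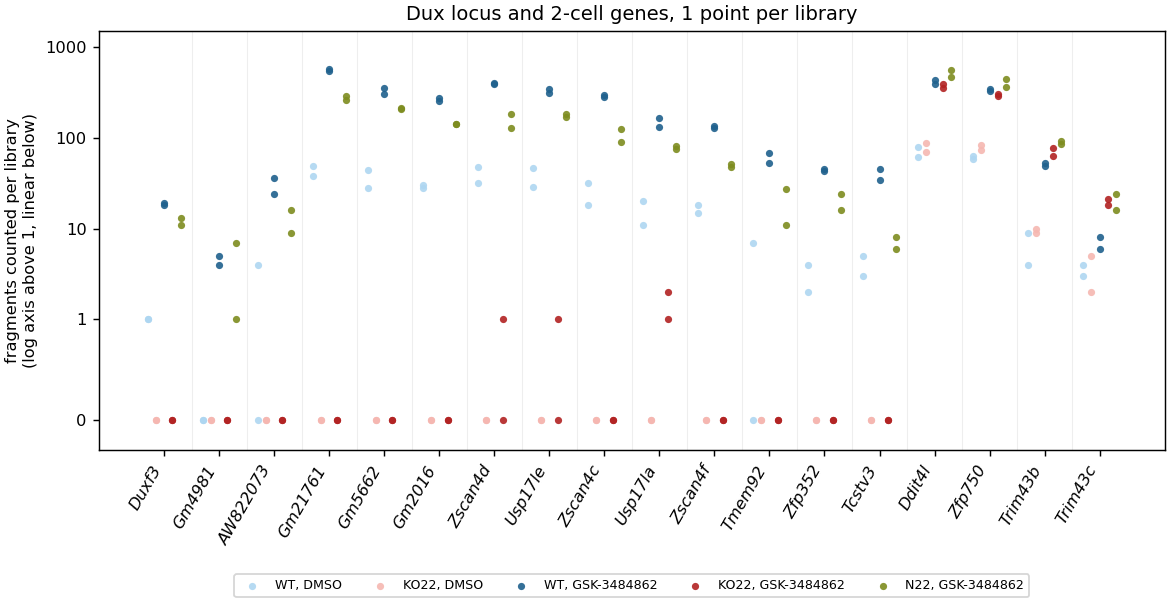
Fragments counted in each library (vertical axis, logarithmic above 1 and linear below) for the Dux locus and 2-cell genes (horizontal axis), 1 point per library, with 2 libraries for each of the 5 groups in the key. From Duxf3 to Tcstv3 the KO22 libraries lie at 0 to 2 counts, while Ddit4l, Zfp750, Trim43b and Trim43c have KO22 points close to the WT points or above them.

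In DMSO the 2-cell genes were low in both lines, and the loss was harder to see. WT summed to 25.7 and 30 CPM and KO22 to 9.85 and 9.21. Of the 38 members, 22 were called lower (57.9%, beside 28.5% of all genes with DMSO), against 34 with GSK-3484862 (89.5%, beside 10.1%). With DMSO 28 of the 38 had no KO22 count, so lower was again the only call open to them. All 22 were also lower with GSK-3484862. Of the other 12 lower members, 11 had no called change in the difference between conditions and 1 did: Usp17ld, with 51 and 62 counts in WT against 0 and 0 in KO22 with GSK-3484862 and 3 and 3 against 0 and 2 with DMSO (interaction adjusted p 0.0132). For members with no KO22 count in either condition the interaction test has no information on the size of the loss.

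Loss of signal in KO22 extended past the list. In all, 65 genes were called lower with no count in either KO22 library, and 0 genes were called higher with no count in either WT library. Of the 65, 23 are in the 2-cell list, 45 are unnamed models or clone names, and their sums over the WT pair ran from 13 to 1116 counts. KO22 with DMSO also had no count for 59 of them. In N22 with GSK-3484862, 63 had counts in both libraries; since the genes were picked for their KO22 counts, KO22 against N22 is no test here. The following genes were chosen after their values were seen. Rdh1, a retinol dehydrogenase, had 51 and 49 counts in WT, 26 and 23 in N22 and 0 and 0 in KO22, at least 34.2-fold (adjusted p 1.71e-09). Trim75 had 13 and 37 and the PRAME family gene Pramef6 29 and 13 in WT, and both were at 0 and 0 in KO22. All 3 had counts in both N22 libraries.

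A second group fell steeply without reaching 0. Cacna1s, the calcium channel subunit of skeletal muscle, had 56 and 63 counts in WT, 25 and 45 in N22 and 4 and 1 in KO22 (log2 -4.50, SE 0.55, adjusted p 9.03e-10). Arg2, mitochondrial arginase, had 38 and 35 against 3 and 4 (log2 -3.34, SE 0.59, adjusted p 8.69e-06). Spesp1, a sperm acrosome gene, had 87 and 75 against 8 and 4 (log2 -3.73, SE 0.42, adjusted p 4.69e-11). These 3 had N22 values between the other lines. Abcb5, a transporter whose promoter is printed above, had 24 and 18 counts in WT, 20 and 15 in N22 and 0 and 1 in KO22, a ratio of WT to KO22 of 43.1 with a wide interval of 7.32 to 1740. Stox1, a winged helix gene, had 57 and 62 counts in WT against 12 and 10 in KO22 (log2 -2.42, SE 0.39, adjusted p 1.36e-06), and 41 and 34 in N22.

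Next are the largest losses among named genes whose log2 CPM averaged at least 1 over the 4 libraries. This average of logs leaves out genes near 0 in KO22, such as the Zscan4 and Usp17-like genes above, so the losses here are smaller than theirs. Gstm2, a mu-class glutathione S-transferase, had 130 and 149 counts in WT against 25 and 28 in KO22 (log2 -2.39, SE 0.21, adjusted p 1.18e-14). Aurkc, the aurora kinase of germ cells and early embryos, had 86 and 101 counts against 34 and 11 (log2 -2.05, SE 0.30, adjusted p 6.69e-06); the KO22 values lay far apart but below both WT values. Sema3e, a secreted guidance cue, had 75 and 88 against 19 and 22 (log2 -1.99, SE 0.26, adjusted p 3.48e-09). Limch1, an actin-associated protein gene, had 86 and 75 against 26 and 19, Txlnb, a taxilin gene, 113 and 102 against 46 and 24, and Slfn9, a Schlafen family gene, 81 and 77 against 16 and 36. Gprc5c, an orphan G-protein-coupled receptor, had 171 and 161 against 50 and 60, and Capsl, a calcium-binding protein gene, 146 and 118 against 51 and 37. The log2 differences of these 5 ran from -1.83 to -1.58, and none of their groups overlapped. H19, the imprinted noncoding RNA, was the most abundant of the set at 1259 and 1346 counts in WT and 484 and 466 in KO22 (log2 -1.46, SE 0.09, adjusted p 9.90e-23), and N22 had 622 and 728.

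Several calls from the lists had higher counts. Lefty1, a secreted inhibitor of Nodal signalling, had 1507 and 1490 counts in WT against 645 and 611 in KO22 (log2 -1.26, SE 0.06, adjusted p 1.18e-26). Its relative Lefty2 had 2293 and 2328 against 1336 and 1531 (log2 -0.69, SE 0.05, adjusted p 8.43e-18). The receptor Fgfr2 had 231 and 229 against 126 and 98 (log2 -1.04, SE 0.15, adjusted p 7.93e-08). Mmp2, a matrix metalloproteinase, had 285 and 269 against 119 and 142 (log2 -1.09, SE 0.14, adjusted p 1.45e-09). All 4 were also lower in DMSO, where Lefty1 fell by 2.11 and Fgfr2 by 2.62 on the log2 scale. The transcription factor gene Tfap2c had 1465 and 1702 counts in WT against 979 and 1034 in KO22 (log2 -0.66, SE 0.06, adjusted p 1.33e-14), against a log2 difference of -1.98 in DMSO.

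Gains in KO22 were smaller. The 16 genes at least 4-fold higher all had low WT counts, with at most 12 in a library. Most genes at least 4-fold lower likewise had low KO22 counts, with a mean of at least 10 in 5 of the 148. By the same level filter the largest gain was that of Lonrf2, a RING finger gene, with 41 and 48 counts in WT and 134 and 123 in KO22 (log2 1.53, SE 0.21, adjusted p 1.36e-08). Tmem179, a membrane protein gene, had 101 and 96 against 251 and 299 (log2 1.48, SE 0.16, adjusted p 6.10e-12). Evx1, a homeobox gene of the primitive streak, had 26 and 31 against 67 and 85 (log2 1.41, SE 0.30, adjusted p 1.71e-04), and Xkrx 32 and 23 against 66 and 78. In DMSO Evx1 and Xkrx were at 1 or 2 counts in WT and at 38 to 55 in KO22, so their difference was larger there (log2 5.0 and 5.13). Emp1, an epithelial membrane protein gene, had 558 and 561 against 1329 and 1516 (log2 1.34, SE 0.07, adjusted p 1.70e-24). Adrb1, the beta-1 adrenergic receptor, had 48 and 45 against 117 and 106, and Cyp11a1, the enzyme that starts steroid hormone synthesis, 105 and 119 against 290 and 242. The testis-expressed X-linked gene Tex13b had 87 and 87 against 206 and 194 (log2 1.20, SE 0.20, adjusted p 1.66e-06).

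The BMP, ID and WNT list held calls in both directions: of 25 tested, 5 were higher (20%), 3 lower (12%) and 17 did not pass, with a median of -0.155, beside 12.3% higher and 10.1% lower over all genes. Bmp4, a BMP ligand gene, had 529 and 610 counts in WT against 914 and 920 in KO22 (log2 0.69, SE 0.07, adjusted p 3.91e-12), and Id1, a target of BMP signalling, 873 and 950 against 1386 and 1433 (log2 0.63, SE 0.06, adjusted p 1.79e-12). Smad6, an inhibitor of the same pathway, was lower, with 186 and 164 against 110 and 74 (log2 -0.93, SE 0.17, adjusted p 1.65e-05).

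**Figure D3:**
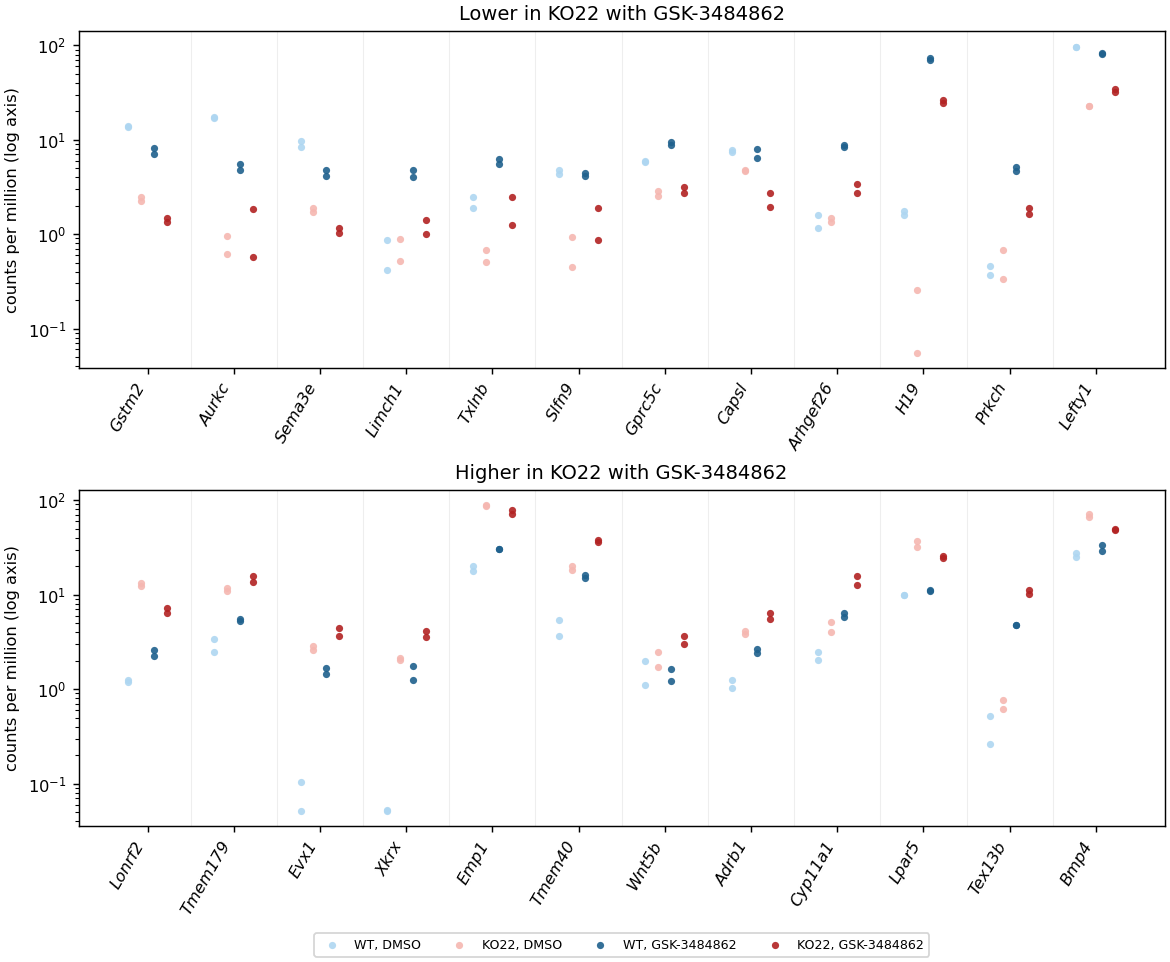
CPM (vertical axis, logarithmic) for the largest losses (upper panel, with Lefty1) and the largest gains (lower panel, with Bmp4) among named genes, 1 point per library and 2 libraries for each of the 4 groups in the key. With GSK-3484862 the KO22 points lie wholly below WT in the upper panel and wholly above WT in the lower panel; for Limch1, Arhgef26 and Prkch the lines overlap or lie close together with DMSO.

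Which differences persisted was read from the DMSO libraries, which share no sample with the main comparison. Of the 3728 genes called with GSK-3484862, 2474 (66.4%) were called with DMSO in the same direction, 1305 higher and 1169 lower. These make up 28.6% of the 8643 DMSO calls. Their median size was 0.35 with GSK-3484862 and 0.549 with DMSO on the log2 scale, and 1893 of the 2474 were smaller with GSK-3484862. Large DMSO differences seldom stayed large: of 2008 genes (12.1%) at least 2-fold apart in DMSO, 184 were at least 2-fold apart in the same direction with GSK-3484862, 573 were called in the same direction at any size, and 1417 were not called. The difference between conditions passed its own test at 5286 genes (31.8%).

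Genes whose difference was lost numbered 3428, or 39.7% of the DMSO calls: called with DMSO, not called with GSK-3484862, and with a called interaction. The noncoding RNAs of the imprinted Dlk1-Dio3 locus stood out by size. Rian had 297 and 307 counts in WT against 1 and 6 in KO22 with DMSO (log2 -6.35). With GSK-3484862 it had 2865 and 2902 in WT and 2570 and 2747 in KO22 (log2 -0.12, SE 0.05, adjusted p 0.101). Mirg had 29 and 17 against 0 and 0 with DMSO, and 332 and 385 against 301 and 356 with GSK-3484862 (log2 -0.13, SE 0.13, adjusted p 0.522). Meg3, from the same locus, kept a small called difference, with 2944 and 3027 against 2371 and 2614 (log2 -0.26, SE 0.05, adjusted p 1.42e-04), where DMSO gave -6.75. Outside that locus, Miip, an inhibitor of cell migration, had 588 and 609 counts in WT against 48 and 36 in KO22 with DMSO, and 542 and 566 against 489 and 549 with GSK-3484862. Dll1, a Notch ligand, had 155 and 123 against 16 and 12 with DMSO and 86 and 83 against 56 and 73 with GSK-3484862.

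Differences in the other direction were lost too. Casq2, cardiac calsequestrin, had 15 and 13 counts in WT against 80 and 111 in KO22 with DMSO, and 74 and 59 against 88 and 95 with GSK-3484862 (log2 0.46, SE 0.22, adjusted p 0.144). Pla2g4e, a phospholipase gene, had 20 and 12 against 108 and 117 with DMSO and 48 and 49 against 44 and 27 with GSK-3484862. Tbx20, a cardiac T-box gene, had 18 and 16 against 93 and 81, and then 54 and 44 against 56 and 61. In these 3 genes the WT counts were higher with GSK-3484862 than with DMSO.

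A group of 380 genes (10.2% of the calls) was called with GSK-3484862 and not with DMSO, with a called interaction: 252 higher and 128 lower. Arhgef26, a guanine nucleotide exchange factor, had 22 and 31 counts in WT against 24 and 29 in KO22 with DMSO, and 153 and 163 against 62 and 52 with GSK-3484862 (log2 -1.47, SE 0.21, adjusted p 4.41e-08). Ddr2, a collagen receptor kinase, had 76 and 65 against 60 and 56 with DMSO and 187 and 187 against 76 and 82 with GSK-3484862 (log2 -1.24, SE 0.17, adjusted p 3.86e-08). Prkch, protein kinase C eta, had 7 and 9 against 6 and 13 with DMSO and 85 and 94 against 35 and 31 with GSK-3484862. These 3 genes had more counts in both lines with GSK-3484862 than with DMSO, and the larger count was in WT. Higher in KO22 were Srgap3, a GTPase-activating protein gene on chromosome 6, with 150 and 186 against 325 and 342 counts (log2 0.99, SE 0.13, adjusted p 6.35e-09), and the RNA-binding protein gene Mex3b, with 143 and 128 against 247 and 251 (log2 0.88, SE 0.15, adjusted p 5.71e-06). A further 596 genes were called with GSK-3484862 only without a called interaction, so a difference between conditions was not shown for them.

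Opposite calls were few: 278 genes (7.46% of the calls), 208 of them higher with GSK-3484862. The imprinted gene Mest (chromosome 6) had 113 and 139 counts in WT against 33 and 32 in KO22 with DMSO, and 3732 and 3685 against 5857 and 6180 with GSK-3484862 (log2 0.70, SE 0.05, adjusted p 1.23e-20). Fgfr4, an FGF receptor, had 96 and 98 against 61 and 63 with DMSO and 227 and 250 against 482 and 478 with GSK-3484862 (log2 1.01, SE 0.12, adjusted p 1.48e-10). Plekhg1, a guanine nucleotide exchange factor gene, went the other way, with 262 and 256 against 352 and 460, and then 784 and 829 against 396 and 396 (log2 -1.03, SE 0.09, adjusted p 1.25e-15). Calcoco2, an autophagy receptor, had 245 and 247 against 320 and 354, and then 552 and 511 against 308 and 321 (log2 -0.76, SE 0.10, adjusted p 3.41e-09). Serpinf1, which encodes a secreted serpin, had 352 and 361 against 434 and 442, and then 282 and 274 against 149 and 146 (log2 -0.92, SE 0.12, adjusted p 1.04e-08). Cpne9 and Epha8 were called higher with GSK-3484862 after being lower with DMSO, but Cpne9 lost its call without WT replicate 1 (adjusted p 0.088), and Epha8 lost it in DESeq2, with a GC content offset (adjusted p 0.053) and without any 1 of 3 libraries: WT replicate 1 (adjusted p 0.512), KO22 replicate 1 (0.186) or KO22 replicate 2 (0.0714). Without WT replicate 1 the number of opposite calls was 167, and in DESeq2 it was 118.

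Genes of the DNA methylation machinery held calls in both directions. Of 31 tested, 8 were higher (25.8%, beside 12.3% of all genes), 5 lower (16.1%, beside 10.1%) and 18 did not pass, and the median was -0.02 on the log2 scale. Dnmt1, which encodes the target of the compound, had 9055 and 9023 counts in WT against 8811 and 9051 in KO22 (log2 -0.02, SE 0.03, 95% interval -0.08 to 0.04, adjusted p 0.728); the compound acts on the protein, which was not measured. The de novo methyltransferase gene Dnmt3b had 5351 and 5614 against 5462 and 5334 (log2 -0.02, SE 0.04, adjusted p 0.711). Dnmt3a, its relative, had 3103 and 3204 against 2301 and 2424 (log2 -0.42, SE 0.04, adjusted p 6.10e-12). Dnmt3l, a cofactor of both, had 10197 and 10099 against 11494 and 11846 (log2 0.20, SE 0.03, adjusted p 2.97e-06), where DMSO gave 1.06. Uhrf1, which brings DNMT1 to replicating DNA, was higher by 0.18 on the log2 scale (SE 0.03, adjusted p 4.27e-06), with 9720 and 10108 against 11198 and 11317. Mbd4, a glycosylase gene on chromosome 6, had 396 and 395 against 596 and 610 (log2 0.61, SE 0.08, adjusted p 2.88e-08).

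Imprinted and germline genes, many of which are silenced by methylation, held calls in both directions, whereas the X-linked list held only lower calls. Of 48 imprinted genes tested, 6 were higher (12.5%) and 7 lower (14.6%), beside 12.3% and 10.1% over all genes. Peg10 had 14599 and 15058 counts in WT against 24094 and 25735 in KO22 (log2 0.75, SE 0.03, adjusted p 4.91e-30), and the growth inhibitor gene Cdkn1c 705 and 736 against 1081 and 1233 (log2 0.68, SE 0.07, adjusted p 5.48e-13). Of 38 germline genes, 6 were higher and 6 lower (15.8% each). The germ cell RNA-binding protein gene Dazl had 702 and 594 counts in WT against 1069 and 1245 in KO22 (log2 0.83, SE 0.10, adjusted p 1.12e-08), and Tex19.1, a transposon control gene, 3378 and 3567 against 4342 and 4460 (log2 0.34, SE 0.04, adjusted p 1.63e-09). Meioc, a meiotic gene, was lower, with 242 and 237 against 130 and 141 (log2 -0.82, SE 0.15, adjusted p 1.71e-05). Of 25 X-linked testis and placenta genes, 0 were higher and 5 lower (20%), against 10.1% lower over all genes. Chromosome X as a whole leaned the same way. Of its 617 genes tested, 28 were higher (4.54%) and 88 lower (14.3%), with a median of -0.0795 on the log2 scale. The list had a median of -0.307 and summed to 176 and 174 CPM in WT against 158 and 143 in KO22. Xlr3a had 198 and 199 against 118 and 120 counts (log2 -0.74, SE 0.18, adjusted p 0.00124). Of the 5, Xlr5a lost its call without WT replicate 2 (adjusted p 0.184) or KO22 replicate 2 (0.23), and Mageb16 without WT replicate 1 (0.0661).

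Naive pluripotency genes were called more often as higher than as lower, by small amounts. Of 26 tested, 11 were higher (42.3%, beside 12.3% of all genes), 4 lower (15.4%, beside 10.1%) and 11 did not pass, with a median of 0.05 on the log2 scale. The TGF-beta family gene Gdf3, on chromosome 6, had 1855 and 1824 counts in WT against 2755 and 2627 in KO22 (log2 0.55, SE 0.05, adjusted p 1.21e-14). Utf1, a chromatin factor of ES cells, had 8187 and 8602 against 10625 and 10927 (log2 0.36, SE 0.03, adjusted p 1.47e-14), and the orphan nuclear receptor gene Nr0b1 2383 and 2454 against 3000 and 2985 (log2 0.31, SE 0.05, adjusted p 3.07e-07). Dppa3, a maternal factor that protects methylation after fertilisation, was lower although it lies on chromosome 6, with 268 and 241 against 174 and 147 (log2 -0.67, SE 0.15, adjusted p 3.72e-04). Of 36 genes listed as regulators of Dux, 6 were higher (16.7%) and 5 lower (13.9%), beside 12.3% and 10.1% of all genes. The called members included Trim66, with 50 and 52 counts in WT against 13 and 26 in KO22 (log2 -1.39, SE 0.32, adjusted p 6.66e-04), a call that ended without KO22 replicate 1 (adjusted p 0.061). With small differences they also included Trim28, the corepressor of KRAB zinc finger proteins (0.15), Lin28a (0.15) and the deubiquitinase gene Usp7 (-0.12), as log2 differences.

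Hypoxia and glycolysis genes differed less with GSK-3484862 than with DMSO. With DMSO, 32 of 34 tested were lower in KO22 and 0 higher, beside 28.5% lower over all genes. With GSK-3484862, 11 were lower (32.4%, beside 10.1% of all genes) and 3 higher (8.82%, beside 12.3%). The median moved from -0.77 to -0.16 on the log2 scale. The difference between conditions was called, in the upward direction, for 28 of 34, beside 18.3% of all genes. The glucose transporter gene Slc2a1 had 16904 and 17080 counts in WT against 7832 and 8441 in KO22 with DMSO. With GSK-3484862 it had 7432 and 7543 against 5593 and 6207 (log2 -0.35, SE 0.03, adjusted p 1.19e-13). Bhlhe40, a hypoxia-induced transcription factor gene, had 1392 and 1558 against 175 and 171 with DMSO, and 177 and 185 against 186 and 233 with GSK-3484862 (log2 0.21, SE 0.11, adjusted p 0.197). In both genes the WT level was lower with GSK-3484862 than with DMSO. P4ha2, a collagen prolyl hydroxylase, stayed lower, with 227 and 209 against 103 and 97 (log2 -1.12, SE 0.15, adjusted p 5.35e-09).

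The remaining lists held calls in both directions or few calls, and their counts stand beside 12.3% higher and 10.1% lower over all genes. Of 28 p53 targets 7 were higher (25%) and 1 lower (3.57%), among them Tigar, a regulator of glycolysis on chromosome 6 (1383 and 1429 against 2050 and 2079 counts, log2 0.55, SE 0.05, adjusted p 2.00e-14), and Bax, a pro-apoptotic gene (3919 and 3887 against 4549 and 4471, log2 0.21, SE 0.04, adjusted p 3.11e-05). Of 15 retinoic acid genes 1 was higher, the receptor gene Rarg (log2 0.31, SE 0.03, adjusted p 1.30e-11). Of 19 interferon and nucleic acid sensing genes 2 were higher and 2 lower; the RNA sensor gene Ddx58 had 897 and 902 against 1204 and 1210 counts (log2 0.42, SE 0.06, adjusted p 2.83e-07). The calls of the other sensor, Cgas, and of Oas3 each ended without KO22 replicate 2 (adjusted p 0.079 and 0.0635), and that of Cgas also without WT replicate 1 (0.0711) and in DESeq2 (0.0779). Of 24 primitive endoderm genes 2 were higher (8.33%) and 6 lower (25%), with the laminin gene Lamb1 at 1927 and 2057 against 1381 and 1412 counts (log2 -0.51, SE 0.05, adjusted p 2.63e-12). Of 26 primed and germ layer genes 6 were higher and 6 lower (23.1% each), and of 13 fibroblast genes 4 were higher (30.8%), among them Thy1 (317 and 404 against 557 and 592 counts), and 2 lower. Of 17 trophoblast genes 2 were higher, Peg10 and Tead4, both on chromosome 6, and 5 lower (29.4%).

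**Figure D4:**
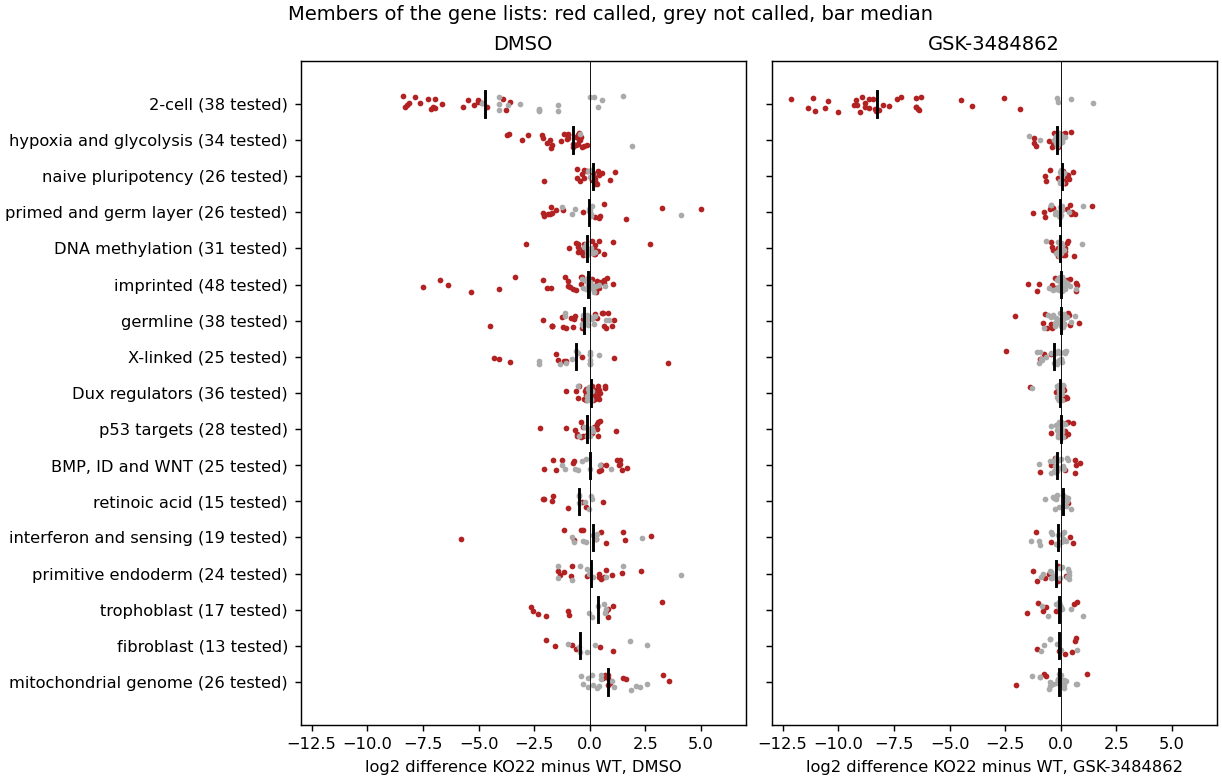
Each point is 1 tested gene of a list (rows), placed by its log2 difference KO22 minus WT with DMSO (left panel) and with GSK-3484862 (right panel); red points were called, grey points were not, and black bars are list medians. The 2-cell list has its median at -8.24 with GSK-3484862, the hypoxia and glycolysis list moves from -0.77 to -0.16, and the other list medians with GSK-3484862 lie between -0.31 and 0.09.

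Part of the gains lay on chromosome 6. There, 313 of 805 genes tested were higher in KO22 (38.9%) and 58 lower, against 10.9% higher on the other chromosomes. They lay mainly in its outer parts. From 0 to 50 Mb and from 100 to 150 Mb, 291 of 543 genes were higher (53.6%) and 7 lower, and the median was 0.50 on the log2 scale with GSK-3484862 and 0.48 with DMSO, a level 1.42-fold that of WT. From 50 to 100 Mb, 22 of 262 were higher and 51 lower, with a median of -0.14. In 10-Mb windows with at least 20 tested genes, 9 of 13 windows of chromosome 6 had medians above 0, between 0.402 and 0.589, whereas the 221 windows of the other chromosomes lay between -0.287 and 0.107. N22 was not raised there (medians of -0.0842 to -0.0295 against WT with GSK-3484862 in the outer 25-Mb windows). RNA counts cannot tell more copies of these parts from more RNA per copy, and which applies was not tested.

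The chromosome 6 pattern touched several genes described above. Emp1, Tmem40, Wnt5b, Lpar5, Srgap3, Peg10, Mest, Gdf3, Mbd4, Tead4 and Tigar lie in its outer parts, as do Bhlhe40 and Dppa3, which were not higher. Tmem40 had 271 and 301 counts in WT against 667 and 728 in KO22 (log2 1.28, SE 0.11, adjusted p 4.36e-16), and Lpar5, a lysophosphatidic acid receptor gene, 198 and 204 against 455 and 487 (log2 1.23, SE 0.11, adjusted p 9.56e-15). Both are above the median of the region. Of the 80 genes at least 2-fold higher, 15 lie in the outer parts and 65 elsewhere. With chromosome 6 left out of the count, 3357 genes were called, 1731 higher and 1626 lower. Untreated clones showed the same pattern in part: against E14, the ES line of the untreated set, the median of the 100 to 150 Mb part was 0.403 in Dux-KO-15, 0.486 in Dux-KO-52 and 0.462 in Duxnto1-40. It was -0.0604 in Dux-KO-22, the untreated library that carries the number of the KO22 clone, and between -0.0567 and -0.04 in the other 3 Duxnto1 libraries. Duxnto1-40 had counts for 15 of the 50 listed 2-cell genes, the fewest of the untreated libraries. Whether the titles of the untreated libraries match their clones was not tested.

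**Figure D5:**
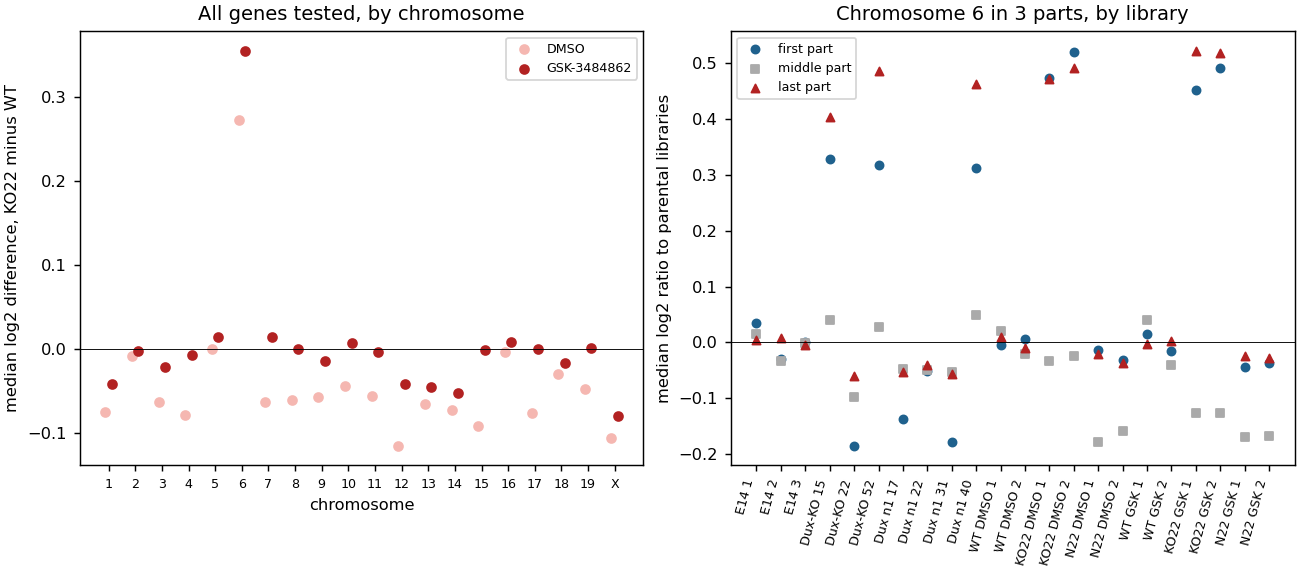
Left, the median log2 difference KO22 minus WT of all genes tested on each autosome and X, with DMSO and with GSK-3484862; chromosome 6 stands at 0.273 and 0.355 and the other autosomes and X lie between -0.115 and 0.0147, while Y and the mitochondrial genome are not drawn. Right, the median log2 ratio to the parental libraries of the same condition for genes in the first (0 to 50 Mb), middle (50 to 100 Mb) and last (100 to 150 Mb) part of chromosome 6, 1 column per library; the 4 KO22 libraries, Dux-KO-15, Dux-KO-52 and Duxnto1-40 are raised in the first and last part, with middle parts between -0.127 and 0.0494.

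Set against N22 in place of WT, KO22 with GSK-3484862 differed at 4087 genes (24.6%), 2147 higher (12.9%) and 1940 lower (11.7%). This contrast uses the same KO22 libraries, so it is no separate evidence about them, and its values are given beside those above. Gstm2, at 130 and 149 counts in WT, had 85 and 112 in N22 against 25 and 28 in KO22. Lefty1 had 1191 and 1307 counts in N22 and 645 and 611 in KO22, and Emp1 479 and 494 against 1329 and 1516. For these genes N22 lay on the side of WT. Smad6 was different: its N22 counts, 93 and 105, were close to those of KO22 (110 and 74; log2 -0.18, SE 0.19, adjusted p 0.535).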

How the data were processed

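The authors deposited, for every gene of Ensembl 84 (GRCm38), the raw count of fragments on its exons, made with featureCounts 2.0.1 in paired mode without multi-mapping reads or strand, per the file headers; fastp 0.23.2, HISAT2 2.1.0 and DESeq2 1.40.2 are named in the submitters' processing notes. Copies of repeated families, and overlapping or antisense genes, are therefore uncertain. Symbols came from GENCODE M21 (47310 of 47729 identifiers). The 12 treated libraries (6 groups of 2) were fitted with edgeR 4.0.16 (R 4.3.3) with TMM scaling, a minimum count of 10, the robust quasi-likelihood test, no replicate term, common biological coefficient of variation 0.0435, and Benjamini-Hochberg adjustment over 16641 genes with calls below 0.05. SE is the log2 difference divided by the root of F. Floors are 3 counts over a group; floors and intervals cover counting error only. Replicates differed by more than sampling noise (chi-square per degree of freedom 2.61 to 3.2). An exact permutation test of 2 against 2 samples could not reach 0.05. The fit was tested on simulated data. Also run were DESeq2 1.42.0, scaling by RLE, the fit with all genes kept, a GC content offset, a replicate block, fewer libraries and a 2-fold minimum. The members and gene lists were chosen with earlier results of these data known. Named genes were fixed Dux, 2-cell and methyltransferase genes, the 12 largest calls in each direction, the 6 largest of each class and up to 4 per list by smallest p, and fewer are printed.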

Additional observations from a re-analysis of the deposited data

Results flagged for a closer look

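The difference between the lines itself differed between GSK-3484862 and DMSO at 5286 genes by the interaction test. Among the genes described with opposite calls, the log2 difference with GSK-3484862 minus that with DMSO was 2.62 for Mest, 2.57 for Epha8, 1.89 for Cpne9 and 1.62 for Fgfr4, and -1.70 for Plekhg1, -1.24 for Calcoco2 and -1.24 for Serpinf1.

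Signals in libraries that no comparison used were above the untreated E14 libraries. The untreated library titled Dux-KO-22 held 5 Duxf3 counts, where the 3 E14 libraries held 1, 0 and 0. The median log2 ratio to E14 of genes in the 100 to 150 Mb part of chromosome 6 was 0.403 in Dux-KO-15, 0.486 in Dux-KO-52 and 0.462 in Duxnto1-40, where the E14 libraries lay between -0.00519 and 0.007.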

How the results depend on the processing

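Calls by DESeq2 were fewer: 2205 with GSK-3484862 (1239 higher, 966 lower), of which 2195 were also among the 3728 of edgeR, and 2566 against N22. Its counts were 1584 for both conditions in the same direction, 118 for opposite directions and 177 for GSK-3484862 only with an interaction. It called 18 of the 2-cell members lower, having given an adjusted p to 21 of the 38, and edgeR called the same number, 18, of those 21. Requiring 2-fold left 184, 4, 32 and 814 genes in the 4 classes (same direction, opposite, GSK-3484862 only, DMSO only). Without multi-copy families 6 members of the 2-cell list were lower, and without unnamed models, chosen after seeing the data, 20, since fewer members were counted. The summed CPM of the list without multi-copy families was 50.6 in WT, 35.8 in KO22 and 55.9 in N22 with GSK-3484862. With DMSO it was 7.84 in WT and 8.39 in KO22. Most of this sum came from Ddit4l and Zfp750, which were not called. Of its 647 and 698 counts in KO22 with GSK-3484862, Ddit4l held 357 and 393 and Zfp750 289 and 305. Of 945 and 908 in WT, Ddit4l held 438 and 392 and Zfp750 328 and 347. The sum therefore does not give the size of the loss in its other members. Leaving out single libraries gave 2602 to 2769 calls with GSK-3484862 and 167 to 239 opposite calls. Dnmt3b, not called, had log2 differences from -0.0692 to 0.0117 when single libraries were left out, and changed sign without KO22 replicate 2 (adjusted p 0.902).

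Same-numbered libraries showed little sign of pairing. The correlation of their deviations ran from -0.0312 to 0.137, which cannot exclude that they were grown or prepared together. The replicate block gave 3742 calls with GSK-3484862, 8655 with DMSO, 5320 for the interaction and 4116 against N22, and 3861 together with the GC content offset; it changed no call of a named gene. Over 121 named genes and all alternatives run on them, 1303 of 1319 values kept direction and side of the threshold. Of the 121 named genes DESeq2 gave an adjusted p to 109, and the rest have no DESeq2 value in that total. Depth limits genes under about 10 counts, such as Gm4981.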
